A study of Mus musculus with 18 samples.

Results

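Collagen RNA was described across 18 mouse brain libraries from a stroke experiment, over 3 regions and 2 genotypes. The members were all gene symbols of the count table made of Col, a number, the letter a and a second number. Of 44 such symbols, 43 reached at least 10 counts in 3 or more libraries and were kept, out of 18922 genes in all. Col17a1, a transmembrane collagen, was left out because it reached that count in 2 libraries, with a highest count of 26. The member nearest to the limit on the kept side was Col4a3, with 10 counts or more in 6 libraries and a highest count of 46. All 43 members passed the filter on low counts and were tested.

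Every mouse, control tissue included, had a photothrombotic stroke, in which the dye Rose Bengal (50 mg/kg) and a 525 nm laser at 125 mW clot the vessels of a 3 mm circle of cortex. The mice were males of a C57Bl6 background, 8 to 10 weeks old, and were wild type or Trem2 knockout. Trem2 is a receptor of microglia and macrophages, and no allele or cell restriction of the knockout is given. At 7 days after injury, TTC, a dye that leaves dead tissue pale, guided the dissection of the infarct core, the peri-infarct zone and the contralateral side, with 3 libraries per genotype and region. There were no uninjured mice. The contralateral tissue is therefore the control within injured animals. The labels do not say which libraries came from 1 animal or whether animals were pooled, so p-values measure the spread between these libraries, which may be partly technical.

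Collagens are secreted or membrane proteins whose chains wind into triple helices. Fibrillar collagens (types I, II, III, V, XI, XXIV and XXVII) form the rope-like fibres of scars and connective tissue, and the fibril-associated FACIT collagens decorate those fibres. Type IV forms the sheet of basement membranes, types XV and XVIII (multiplexins) sit at the edges of those sheets, type VII forms anchoring fibrils, type VI forms beaded filaments and types VIII and X form short-chain networks. Types XIII, XXIII and XXV span the cell membrane. In healthy brain, collagen protein lies mainly in the vessel walls, meninges and choroid plexus, and after stroke a fibrous scar forms around the dead tissue.

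The promoters of 3 of the members with the largest rises in the core are shown, one each of collagen types I, III and VII. Each is the 250 bases before the transcription start in the RefSeq annotation of mouse build GRCm38.p6, a build that differs from the GRCm39 of the deposited tables. They lie on the plus strand at chr6:4505368-4505617 (Col1a2), chr1:45311288-45311537 (Col3a1) and chr9:108953336-108953585 (Col7a1), outside every gene model with coordinates in the RefSeq gene table. Capitals mark matches on either strand to the TATA box (TATAAA), the CCAAT box (CCAAT, or ATTGG on the other strand) and the GC box (GGGCGG).
Col1a2: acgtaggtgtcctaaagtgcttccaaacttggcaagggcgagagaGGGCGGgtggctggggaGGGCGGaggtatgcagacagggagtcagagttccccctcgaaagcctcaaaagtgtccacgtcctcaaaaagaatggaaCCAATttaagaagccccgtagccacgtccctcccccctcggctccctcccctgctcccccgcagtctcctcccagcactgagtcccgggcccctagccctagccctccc
Col3a1: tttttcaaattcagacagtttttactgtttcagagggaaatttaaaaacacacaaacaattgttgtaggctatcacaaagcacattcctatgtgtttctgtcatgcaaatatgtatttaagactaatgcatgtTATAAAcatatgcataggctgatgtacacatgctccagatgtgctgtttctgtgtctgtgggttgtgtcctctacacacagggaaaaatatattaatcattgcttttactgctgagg
Col7a1: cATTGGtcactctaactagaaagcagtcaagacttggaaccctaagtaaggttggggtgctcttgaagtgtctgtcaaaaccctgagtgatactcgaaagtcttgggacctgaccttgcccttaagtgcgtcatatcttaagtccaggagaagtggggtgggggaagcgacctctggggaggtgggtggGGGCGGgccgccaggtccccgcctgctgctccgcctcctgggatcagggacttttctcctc

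The printed Col1a2 promoter held 2 GC boxes and a CCAAT box, that of Col7a1 held a GC box and a CCAAT box, and that of Col3a1 held a TATA box and neither of the others. RefSeq promoters were matched by symbol for 34 of the 43 members (37 start sites). Those without an entry were Col1a1, Col2a1, Col4a3, Col5a2, Col9a3, Col12a1, Col14a1, Col22a1 and Col26a1. A GC box stood in 59.5% of the 37 member promoters and in 32.7% of all 32851 promoters of the same length. CCAAT stood in 32.4% against 33.8%, TATAAA in 10.8% against 12.4%, and the AP-1 motif TGANTCA in 2.70% against 6.75%. A match is a description of letters, not a tested binding site.

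The libraries held 16994000 to 17691800 estimated counts in 17 cases. Wild-type core library 3 held 18713800 and stood apart. Its 4 cortical neuron markers summed to 1.98 CPM (counts scaled to library size). They summed to 1057 to 1203 in the other wild-type core libraries and 559 to 746 in the knockout core libraries. Wild-type contralateral libraries held 1168 to 1574 CPM of them. The 4 astrocyte markers summed to 285 CPM in library 3, 6713 and 5481 in wild-type core libraries 1 and 2, and 6012 to 6094 in wild-type contralateral libraries. Fits without library 3 thus rest on wild-type core libraries whose neuron and astrocyte sums were near contralateral ones. The 5 macrophage and microglia markers of library 3 summed to 4189 CPM against 1509 to 1564 in the other wild-type core libraries. Counts over the family and part of the single-gene results are therefore given with and without it. Other wild-type core values include it, and it was the highest wild-type core library for 26 of the 43 members. Trem2 stood at 20.5 to 920.1 CPM in the wild-type libraries and at 0.337 to 8.24 CPM in the knockout libraries, and within each region the genotypes did not overlap. Choroid plexus markers (8 genes, Ttr the most abundant) summed to 2439 CPM in knockout contralateral library 2, 2268 in knockout peri-infarct library 3, 589 in knockout peri-infarct library 1 and 264 in wild-type contralateral library 2. In the other 14 libraries they summed to 17.2 to 86.7 CPM.

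The whole family made up a small share of transcripts in contralateral tissue and a larger one in the core. Per length (TPM, transcripts scaled to library and gene length), the 43 genes summed to 176, 153 and 165 in wild-type and 163, 177 and 144 in knockout contralateral libraries. In peri-infarct tissue the sums were 493, 191 and 195 in wild type and 312, 289 and 397 in the knockout. In the core they were 891, 915 and 1438 in wild type and 995, 1836 and 1515 in the knockout. Every core library lay above every other library, while wild-type peri-infarct library 1 lay far above the other wild-type peri-infarct libraries.

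The make-up of the family differed between regions as well. In contralateral tissue the highest mean TPM belonged to Col6a1 (15.8 ± 1.65, SD, n = 3), Col25a1 (13.8 ± 2.13) and Col9a3 (13.5 ± 1.32) in wild type, and the knockout had the same leading members in another order. Col6a1 encodes a chain of beaded filaments, Col25a1 a neuronal transmembrane collagen and Col9a3 a chain of the FACIT type IX. The Col9a3 gene overlaps Tcfl5 in the RefSeq table, and no use of strand is stated, so reads of these genes could be mixed. In the core Col3a1, Col1a2 and Col1a1, the chains of the main scar collagens, led in both genotypes, with mean TPM of 242 ± 96.4, 234 ± 88.4 and 204 ± 82.2 in wild type and 329 ± 104, 324 ± 103 and 282 ± 99.4 in the knockout. These means differed by less than the SD between libraries, although Col1a1 was the lowest of the 3 in each of the 6 core libraries. Types I and III together took 5.83% to 15.2% of collagen TPM in the contralateral libraries and 57.7% to 68.7% in the core libraries. The transmembrane collagens went from 7.75% to 13.9% in contralateral tissue to 0.186% to 1.47% in the core, and a share can fall because other members rose.

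**Figure D1:**
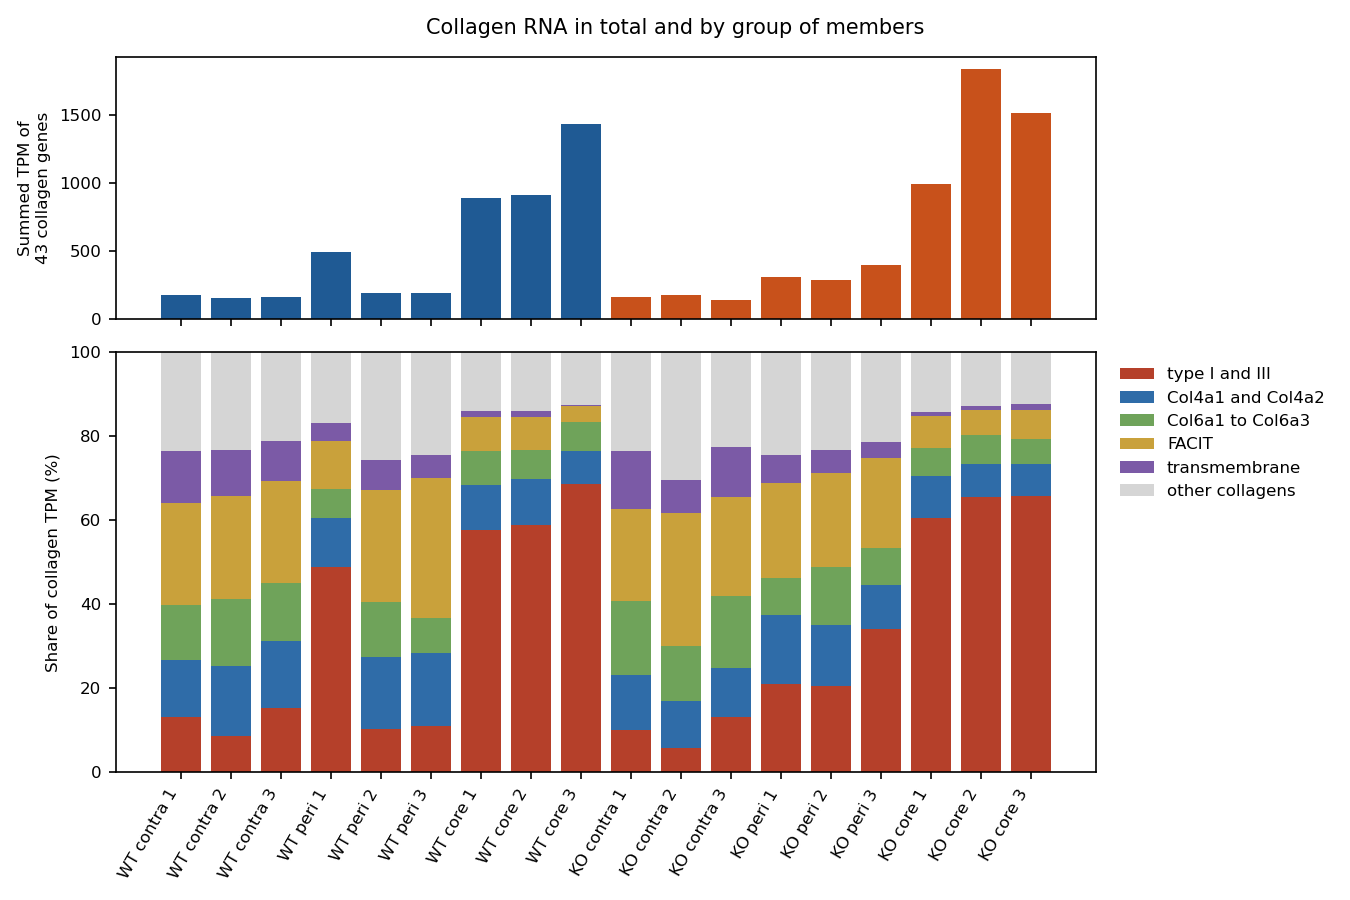
The upper bars give the summed TPM of 43 collagen genes in each of the 18 libraries (blue wild type, orange knockout), and the lower bars split that sum by group of members, in percent. Types I and III take 57.7% to 68.7% of collagen TPM in the 6 core libraries and at most 15.2% in the 6 contralateral ones.

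The first comparison asked which collagens differed between infarct core and contralateral tissue. In wild type 26 of the 43 members (60.5%) were higher in the core and 1 was lower (edgeR quasi-likelihood test, Benjamini-Hochberg adjusted p under 0.05), while 29.1% of all 15329 genes tested were called higher and 11.5% lower. In the knockout 25 members (58.1%) were higher and 0 were lower, beside 19.7% and 3.31% of all genes. The median log2 fold change of the members was 1.78 in wild type and 1.69 in the knockout, against -0.03 and -0.01 over all genes. Without wild-type core library 3, 27 members were higher and 1 lower in each genotype, beside 23.6% and 16.6% of all genes in wild type and 29.6% and 27.8% in the knockout, and the medians of the members were 1.30 and 1.69. In wild type 26 of the 27 calls were shared between both fits, and in the knockout 25 of 25. Whether a bulk tissue holds more cells of a type or more RNA per cell cannot be told apart here. Markers of other cells moved with these results. Of 7 tested fibroblast markers (Dcn and Lum among them) 5 were higher in the core in each genotype. Slc6a13 of the same list did not rise in wild type, at 12.4, 5.91 and 9.03 CPM in contralateral and 9.39, 4.36 and 6.47 in core libraries. The summed level of all 8 was 50.2 to 88.7 CPM in contralateral tissue, 188 to 456 in the wild-type core and 231 to 421 in the knockout core. Of 4 smooth muscle markers 3 were higher in each genotype, and their sum was 12.7 to 20.2 CPM in contralateral and 47.0 to 232 in core libraries. Of 6 pericyte markers 2 were higher in each genotype. Anpep stood at 2.72 to 6.71 CPM in contralateral and 34.1 to 269 in core libraries. Scaled by library total only, Kcnj8, Abcc9, Vtn and Rgs5 in wild-type core library 3 lay below their wild-type contralateral values. Endothelial markers summed to 124 to 152 CPM in contralateral and 138 to 219.5 in core libraries. All 5 macrophage and microglia markers were higher in each genotype, with sums of 221 to 326 CPM in contralateral and 1230.3 to 4189 in core libraries. Of 3 arachnoid markers 2 were higher in wild type and 1 in the knockout, with sums of 6.26 to 20.0 and 15.1 to 56.7 CPM (0 and 2 without wild-type core library 3). The part of these cells in the collagen changes was not tested.

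**Figure D2:**
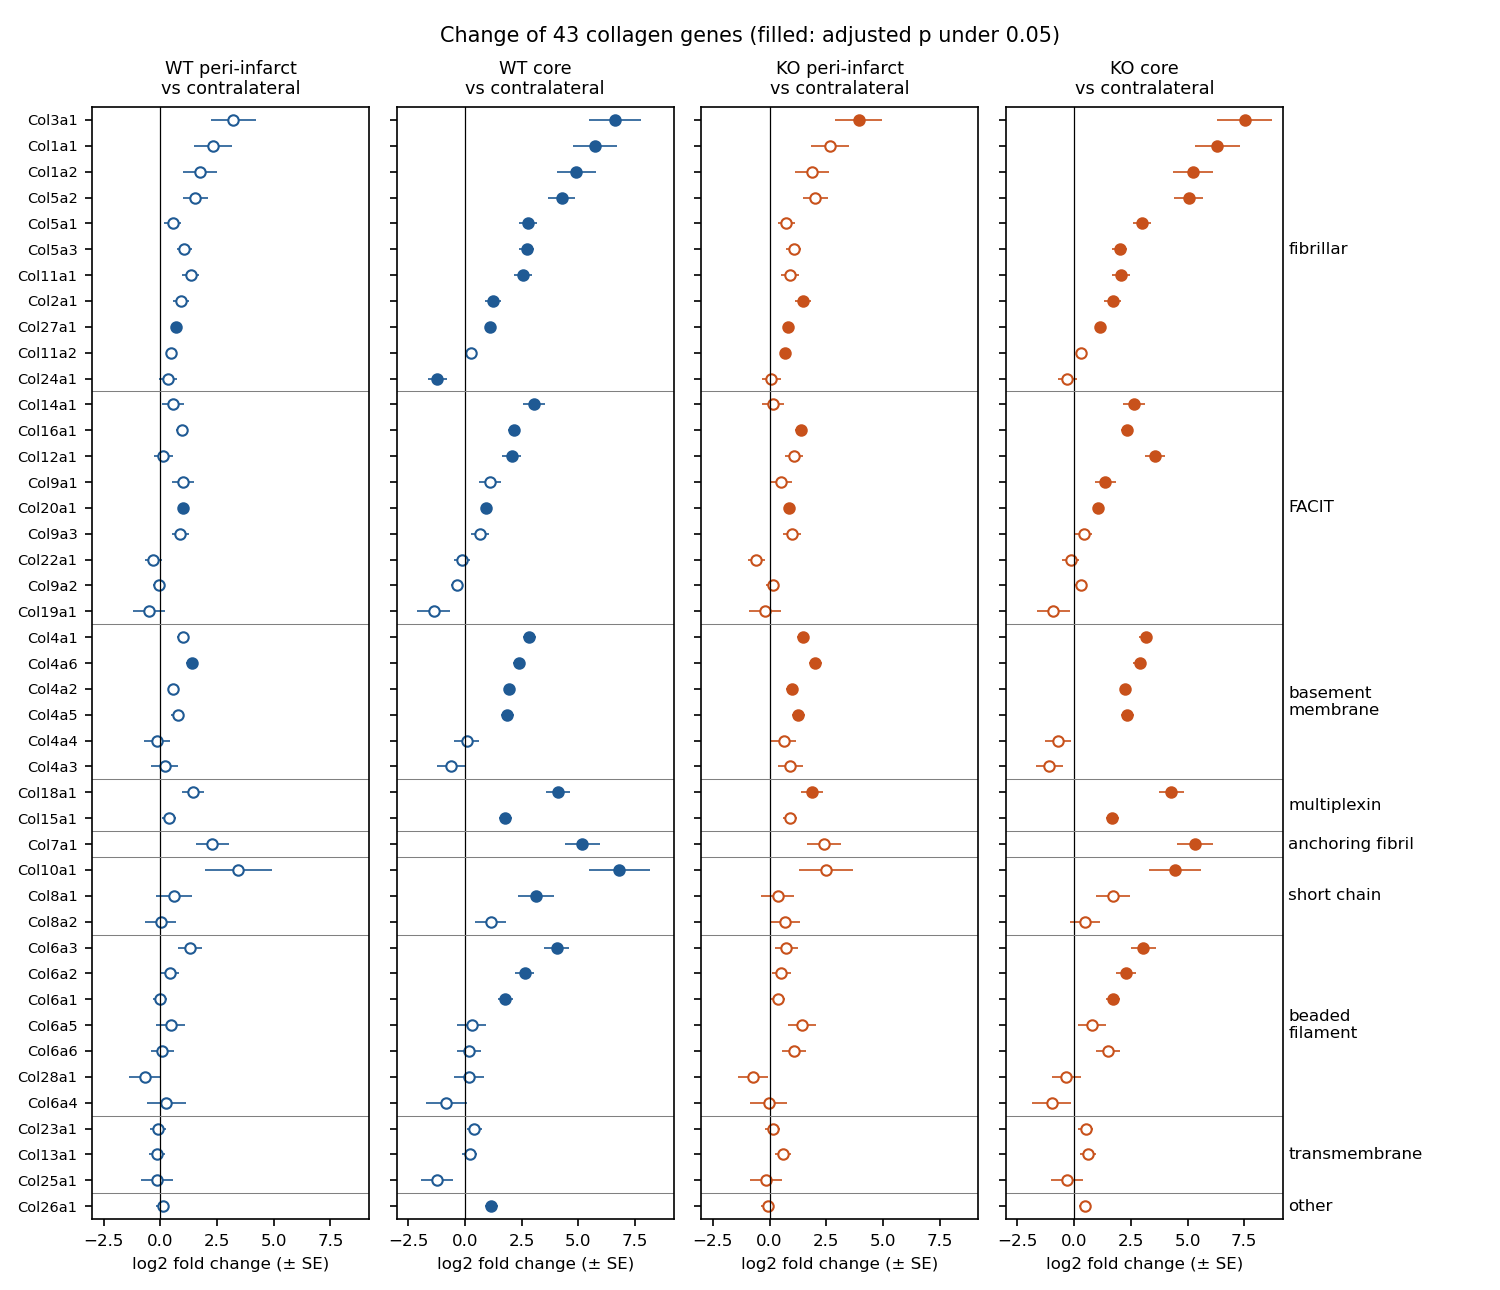
Each row is a collagen gene, ordered by structural class, and each panel a comparison with contralateral tissue; points give the log2 fold change, lines its SE, and filled points an adjusted p under 0.05. In the core 26 members are called higher in wild type and 25 in the knockout, and the transmembrane class has no filled point.

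Among the fibrillar collagens, 9 of 11 rose in the core in each genotype. Col3a1, the chain of type III collagen, stood at 8.76, 3.64 and 13.5 CPM in the wild-type contralateral libraries, 215, 11.1 and 14.1 in peri-infarct tissue and 497, 511 and 1553 in the core. In the knockout it stood at 4.60, 2.99 and 6.91 CPM in contralateral, 56.6, 48.4 and 116 in peri-infarct and 593, 1158 and 906 in core libraries. No core library overlapped a contralateral or peri-infarct one in either genotype. Its log2 fold change from contralateral to core was 6.63 ± 1.16 (SE) in wild type and 7.51 ± 1.21 in the knockout (edgeR adjusted p 0.00065 and 0.00054). Without wild-type core library 3 the values were 5.86 ± 1.09 and 7.51 ± 1.15.

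Type I collagen, the bulk protein of scar and tendon, is made of 2 Col1a1 chains and 1 Col1a2 chain. Col1a1 measured 16.8, 9.39 and 17.6 CPM in wild-type contralateral, 186, 16.7 and 16.9 in peri-infarct and 439, 466 and 1404 in core libraries. In knockout tissue the values were 11.6, 5.81 and 13.3 CPM, then 45.4, 47.3 and 104, then 508, 1084 and 843. Its core to contralateral log2 fold change was 5.72 ± 0.97 in wild type and 6.31 ± 1.00 in the knockout. Col1a2 followed, at 29.4, 18.1 and 29.5 CPM in wild-type contralateral, 214, 22.0 and 25.6 in peri-infarct and 448, 477 and 1380.5 in core tissue. The knockout libraries held 23.5, 15.4 and 25.3 CPM, then 57.1, 52.7 and 127, then 549, 1078 and 821. The Col1a2 difference was 4.90 ± 0.86 in wild type and 5.25 ± 0.88 in the knockout. Without wild-type core library 3 both chains still passed, at 4.95 ± 0.91 and 6.30 ± 0.94 for Col1a1 and 4.17 ± 0.81 and 5.24 ± 0.82 for Col1a2 in wild type and knockout. For both chains wild-type peri-infarct library 1 and core library 3 were the highest of their groups.

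The remaining fibrillar chains changed less. Type V chains, which set fibril width, rose by a log2 fold of 2.78 ± 0.39 (Col5a1), 4.27 ± 0.60 (Col5a2) and 2.72 ± 0.34 (Col5a3) in the wild-type core, and by 3.00 ± 0.39, 5.04 ± 0.62 and 2.01 ± 0.33 in the knockout core. Col11a1, a chain of cartilage and of fine fibrils, rose by 2.55 ± 0.40 and 2.06 ± 0.39, and Col2a1, the main cartilage collagen, by 1.22 ± 0.36 and 1.69 ± 0.36. Col27a1 had small and regular values, at 7.80, 7.98 and 7.17 CPM in wild-type contralateral, 11.6, 12.4 and 12.8 in peri-infarct and 14.7, 14.4 and 20.7 in core libraries. In the knockout Col27a1 stood at 7.37, 7.50 and 7.08 CPM, then 13.4, 14.2 and 11.3, then 16.1, 16.98 and 14.9. Its rise in the core, 1.12 ± 0.14 in wild type and 1.13 ± 0.14 in the knockout, was small in size but larger than the spread between libraries. Col11a2 was not called in the core of either genotype (0.27 ± 0.18 and 0.32 ± 0.18). With wild-type core library 3 left out, it was called higher in wild type (0.44 ± 0.14, edgeR adjusted p 0.023), the 10th of the 11 fibrillar chains, but not in the knockout (0.31 ± 0.13, edgeR adjusted p 0.055). Col5a1, Col5a2 and Col11a1 were then higher in wild type by 2.07 ± 0.25, 3.52 ± 0.51 and 1.97 ± 0.31.

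Col24a1, a minor fibrillar collagen, was the 1 member called lower. It measured 1.75, 2.52 and 2.11 CPM in wild-type contralateral, 1.69, 3.996 and 2.47 in peri-infarct and 1.51, 0.632 and 0.584 in core libraries. The knockout values were 2.76, 1.47 and 1.57, then 2.30, 2.49 and 1.33, then 1.88, 1.34 and 1.48 CPM. Its wild-type difference was -1.22 ± 0.43 (edgeR adjusted p 0.035) and its knockout difference -0.30 ± 0.41, not called. Without wild-type core library 3 the wild-type value was -0.99 ± 0.45 and no longer called (edgeR adjusted p 0.094). Core library 2, at 0.632 CPM, was about as low as library 3, at 0.584.

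**Figure D3:**
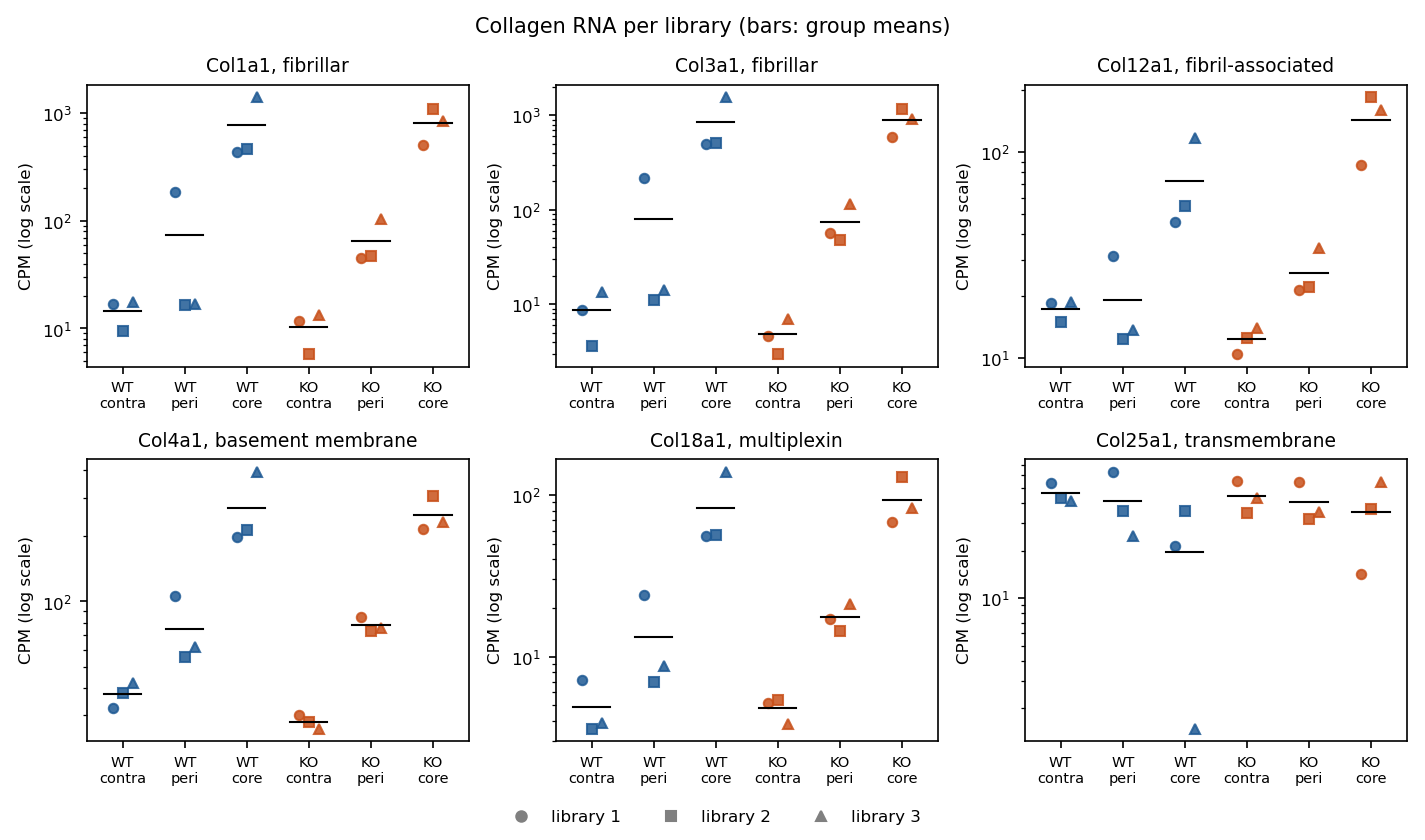
Points give the CPM of 6 collagen genes in each library on a log axis, shaped by library number, with bars at the group means. Col1a1, Col3a1, Col4a1 and Col18a1 are higher in every core library than in any contralateral one, while Col25a1 ranges widely in the core, from 1.49 to 54.6 CPM.

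Of the 9 FACIT collagens, 4 rose in the wild-type core and 5 in the knockout core. Col12a1, a fibril-bound collagen of tendon and ligament, stood at 18.5, 14.9 and 18.6 CPM in wild-type contralateral, 31.2, 12.3 and 13.8 in peri-infarct and 45.8, 55.0 and 117 in core libraries. In the knockout it stood at 10.5, 12.5 and 14.0 CPM, then 21.4, 22.3 and 34.3, then 86.7, 185 and 159.8. The rise in the core was 2.07 ± 0.42 in wild type and 3.54 ± 0.44 in the knockout. Col16a1 measured 17.3, 10.9 and 11.8 CPM in wild-type contralateral, 29.5, 21.4 and 27.0 in peri-infarct and 45.4, 48.5 and 86.5 in core tissue. Its knockout values were 14.5, 9.58 and 12.7, then 32.9, 30.4 and 32.1, then 49.6, 72.4 and 62.8 CPM. None of the 3 regions overlapped in either genotype, and the core differences were 2.17 ± 0.26 and 2.33 ± 0.26.

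Col20a1 reached its core level already in peri-infarct tissue. It stood at 8.08, 10.2 and 9.98 CPM in wild-type contralateral, 18.1, 17.5 and 20.8 in peri-infarct and 17.5, 22.2 and 14.5 in core libraries. Knockout tissue held 9.78, 8.46 and 7.42, then 14.8, 16.9 and 15.0, then 17.5, 19.1 and 16.2 CPM. Its difference between core and peri-infarct tissue was -0.06 ± 0.16 in wild type and 0.18 ± 0.16 in the knockout, not called, with a small SE. Col14a1, which coats type I fibrils, rose by 3.05 ± 0.49 and 2.64 ± 0.48 (2.38 ± 0.40 in wild type without core library 3), and Col9a1, a chain of type IX, rose by 1.38 ± 0.47 in the knockout at an edgeR adjusted p of 0.0497.

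The other FACIT members were not called with all libraries. Col22a1 ranged over 0.519 to 1.92 CPM in the 18 libraries. Col9a3 measured 14.1, 16.8 and 16.6 CPM in wild-type contralateral, 21.8, 26.1 and 39.9 in peri-infarct and 30.9, 28.0 and 16.99 in core libraries. In the knockout it measured 13.2, 39.9 and 13.2 CPM, then 39.4, 33.7 and 57.8, then 31.0, 29.1 and 28.3. The knockout contralateral library with 39.9 and the peri-infarct library with 57.8 CPM are those with the highest choroid plexus markers. Col9a2 stayed between 4.59 and 10.2 CPM in all libraries (9.32, 4.69 and 5.58 in wild-type contralateral, 6.53, 6.25 and 6.04 in peri-infarct, 5.98, 4.59 and 4.86 in core; knockout 9.15, 5.13 and 6.13, then 6.73, 7.07 and 8.53, then 5.70, 9.02 and 10.2). Col19a1, a neuronal collagen, stood at 0.13 CPM in wild-type core library 3 and at 8.30 to 31.7 in the others. It differed by -1.38 ± 0.72 in wild type and -0.91 ± 0.72 in the knockout core, not called. Without that library it fell by 0.81 ± 0.23 and 0.92 ± 0.21 on the log2 scale (edgeR adjusted p 0.011 and 0.0016).

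In the basement membrane class, 4 of 6 type IV chains rose in the core of each genotype, and the same 4 did so. Col4a1 and Col4a2, the chains of every vessel's basement membrane, were the most abundant. Col4a1 stood at 32.5, 38.1 and 42.1 CPM in wild-type contralateral, 106, 55.9 and 62.0 in peri-infarct and 197, 214 and 393 in core libraries. In the knockout the values were 30.1, 28.0 and 26.1 CPM, then 84.95, 73.0 and 75.4, then 215, 304 and 232. Regions were separated without overlap in both genotypes, and the core difference was 2.83 ± 0.29 in wild type and 3.16 ± 0.29 in the knockout (edgeR adjusted p 0.00011 and 6.0e-05).

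Col4a2 showed the same order with smaller steps. Wild-type libraries held 35.5, 34.0 and 34.8 CPM in contralateral, 66.2, 42.9 and 44.3 in peri-infarct and 112, 107 and 183 in core tissue. Knockout libraries held 34.2, 28.5 and 23.8, then 62.6, 53.4 and 54.1, then 113, 171 and 125 CPM. Its core difference was 1.95 ± 0.23 and 2.24 ± 0.24. Col4a6, a chain of certain epithelial and smooth muscle basement membranes, stood at 2.49, 1.82 and 2.06 CPM in wild-type contralateral, 7.17, 4.69 and 4.89 in peri-infarct and 7.84, 9.30 and 16.2 in core libraries. In the knockout it stood at 1.44, 1.41 and 1.40, then 4.72, 6.09 and 6.31, then 8.69, 13.3 and 9.83 CPM. Its rises of 2.38 ± 0.28 and 2.89 ± 0.29 and those of Col4a5 (1.87 ± 0.29 and 2.34 ± 0.30) came from low levels. Col4a3 and Col4a4, chains best known from the filter of the kidney, never exceeded 3.44 CPM and were not called in the core.

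Both multiplexins rose. Col18a1, the source of the fragment endostatin, measured 7.18, 3.58 and 3.88 CPM in wild-type contralateral, 24.1, 6.95 and 8.75 in peri-infarct and 55.5, 56.8 and 139 in core libraries. Knockout libraries held 5.12, 5.41 and 3.82, then 17.04, 14.4 and 21.1, then 68.1, 129 and 83.7 CPM. The core difference was 4.10 ± 0.53 in wild type and 4.29 ± 0.53 in the knockout. Col15a1 stood at 6.27, 4.11 and 5.87 CPM in wild-type contralateral, 8.34, 6.02 and 6.85 in peri-infarct and 14.6, 12.3 and 29.3 in core libraries. Its knockout values were 5.18, 4.51 and 3.09, then 8.29, 7.54 and 8.09, then 12.6, 15.8 and 12.7 CPM, and it rose by 1.79 ± 0.30 and 1.68 ± 0.30. Without wild-type core library 3 both multiplexins were still called higher in wild type, with values from 1.30 to 3.51.

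Col7a1, known as the anchoring fibril of skin, rose from a low level. Wild-type libraries held 1.36, 1.23 and 1.88 CPM in contralateral, 16.96, 2.43 and 2.47 in peri-infarct and 31.3, 28.4 and 102 in core tissue. Knockout libraries held 1.21, 1.52 and 1.18, then 5.58, 5.45 and 9.64, then 38.1, 66.8 and 54.9 CPM. All 3 regions were separated in both genotypes, and the core difference was 5.17 ± 0.78 in wild type and 5.34 ± 0.79 in the knockout. Leaving out wild-type core library 3, the wild-type value was 4.31 ± 0.68.

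Among the short-chain collagens, Col10a1 and Col8a1 rose in the wild-type core and Col10a1 in the knockout core. Col10a1, the collagen of growth plate cartilage, was nearly absent from contralateral tissue, with 0, 2 and 1 counts in wild-type and 9, 1 and 0 in knockout libraries. The core held 76, 107 and 176 counts in wild type and 51, 129 and 54 in the knockout. The ratio of core to contralateral rates was 124 (95% exact interval for counting error only, 42.0 to 603) in wild type and 22.5 (12.04 to 47.6) in the knockout. In peri-infarct tissue Col10a1 stood at 1.87, 0.116 and 0.115 CPM in wild type and 0.518, 2.26 and 0.499 in the knockout. Its gene lies within Nt5dc1 in the RefSeq table, and no use of strand is stated, so reads of these genes could be mixed.

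Type VIII collagen, found in vessel walls and in the cornea, was less even. Col8a1 stood at 3.73, 2.93 and 4.17 CPM in wild-type contralateral, 10.7, 1.85 and 3.91 in peri-infarct and 21.1, 20.0 and 54.3 in core libraries. Knockout libraries held 3.91, 16.9 and 3.77, then 7.25, 3.77 and 20.4, then 16.4, 36.0 and 28.5 CPM. The wild-type rise was 3.13 ± 0.80 (2.50 ± 0.80 without core library 3), and the knockout difference of 1.72 ± 0.75 was not called (edgeR adjusted p 0.12, and 0.049 without wild-type core library 3). Col8a2 measured 3.45, 4.81 and 3.23 CPM in wild-type contralateral, 5.31, 3.65 and 2.70 in peri-infarct and 3.95, 7.41 and 14.1 in core libraries. Its knockout values were 4.43, 19.7 and 4.72, then 11.3, 7.36 and 28.3, then 7.14, 22.5 and 10.997 CPM, and no region was called.

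The main chains of type VI collagen rose together, while the other beaded filament members did not pass the test. Col6a1 measured 24.2, 29.5 and 26.5 CPM in wild-type contralateral, 30.6, 30.4 and 18.5 in peri-infarct and 66.2, 58.8 and 149.96 in core libraries. The knockout values were 32.5, 25.1 and 27.0, then 30.5, 42.7 and 37.2, then 70.8, 122 and 84.2 CPM. Col6a1 rose by 1.78 ± 0.33 in wild type and by 1.71 ± 0.33 in the knockout core, while its wild-type peri-infarct difference was -0.01 ± 0.32, not called. Col6a2 stood at 12.4, 10.0 and 11.2 CPM in wild-type contralateral, 23.3, 12.05 and 9.73 in peri-infarct and 49.9, 41.3 and 117 in core libraries. In knockout tissue it stood at 15.4, 10.8 and 13.7, then 12.7, 23.7 and 20.8, then 42.7, 93.1 and 59.95 CPM. It rose by 2.63 ± 0.44 and 2.30 ± 0.43, and Col6a3, the long chain of the same filament, by 4.05 ± 0.56 and 3.05 ± 0.54. Without core library 3 the wild-type values of Col6a2 and Col6a3 were 2.02 ± 0.36 and 3.43 ± 0.48. Col6a4, Col6a5, Col6a6 and Col28a1 ranged from 0.0565 to 5.06 CPM and were not called in the core of either genotype with all libraries.

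The transmembrane collagens did not pass the test in the core. Col25a1, found on neurons, stood at 54.0, 42.8 and 41.5 CPM in wild-type contralateral, 63.0, 35.8 and 24.8 in peri-infarct and 21.4, 35.6 and 1.49 in core libraries. Knockout libraries held 55.6, 34.4 and 43.05, then 54.6, 31.6 and 34.95, then 14.2, 36.7 and 54.6 CPM. The value of 1.49 belongs to the library in which cortical neuron markers summed to 1.98 CPM. Its core difference was -1.24 ± 0.72 in wild type and -0.33 ± 0.71 in the knockout. Col23a1 measured 9.89, 7.04 and 5.81 CPM in wild-type contralateral, 6.88, 7.24 and 7.02 in peri-infarct and 14.9, 7.46 and 7.85 in core libraries, and 15.3, 7.33 and 9.55, then 9.32, 15.0 and 10.9, then 11.7, 20.7 and 13.01 in the knockout. Col13a1 ranged over 0.451 to 1.92 CPM. Wild-type libraries held 1.92, 1.11 and 1.17, then 1.46, 0.927 and 1.44, then 1.63, 1.66 and 1.62, and knockout libraries 0.863, 0.451 and 1.12, then 1.44, 0.812 and 1.44, then 1.33, 1.39 and 1.00 CPM.

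Col26a1, an unusual collagen of testis and ovary placed in no class here, rose in the wild-type core. It stood at 4.35, 2.64 and 3.35 CPM in wild-type contralateral, 4.20, 3.19 and 3.74 in peri-infarct and 7.61, 6.20 and 9.47 in core libraries. The knockout values were 4.55, 3.83 and 3.77, then 3.80, 3.48 and 4.15, then 3.82, 8.52 and 4.49 CPM. The wild-type rise was 1.17 ± 0.28, and the knockout difference of 0.47 ± 0.28 was not called. Whether these differ was tested as part of the genotype comparison and was not called.

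The second comparison set peri-infarct against contralateral tissue, with the same contralateral libraries as before. In wild type 3 members (6.98%) were higher and 0 were lower, beside 3.27% and 0.00652% of all genes. These were Col4a6 (1.39 ± 0.28), Col20a1 (1.00 ± 0.16) and Col27a1 (0.68 ± 0.14). In the knockout 11 members (25.6%) were higher and 0 lower, beside 4.42% and 0.0522% of all genes. The largest rises were those of Col3a1 (3.93 ± 1.03), Col4a6 (2.00 ± 0.29) and Col18a1 (1.87 ± 0.49), and Col4a1, Col4a2, Col4a5, Col16a1, Col20a1, Col27a1, Col2a1 and Col11a2 were also higher. Positive log2 fold changes were seen for 34 of 43 members in wild type and 37 in the knockout, with medians of 0.55 and 0.86 against 0.02 and 0.04 over all genes.

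Leaving out wild-type core library 3, which is in neither peri-infarct group but shares the fitted spread, gave 13 members higher in wild type (14.2% of all genes) and 16 in the knockout (13.7% of all genes). The 3 and the 11 were among them. In wild type Col3a1 (3.18 ± 0.97), Col7a1 (2.25 ± 0.68), Col5a2 (1.50 ± 0.48), Col18a1 (1.40 ± 0.44) and Col4a1 (0.96 ± 0.20) then passed the test. Wild-type peri-infarct library 1 held the highest value of its group for 32 of the 43 members and for all 6 chains of types I, III and V. Its fibroblast markers summed to 120 CPM against 54.9 and 65.2 in the other 2. Without both libraries 8 members were higher. The share over all genes was not taken for that fit or for the leave-outs that follow. In the knockout, leaving out peri-infarct library 3 gave 5 members, and the 6 leave-outs of a compared library gave 1 to 5.

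The third comparison set core against peri-infarct tissue. In wild type 23 members (53.5%) were higher and 1, Col24a1 (-1.57 ± 0.42), was lower, beside 12.3% and 0.678% of all genes. The largest rises were Col3a1 (3.41 ± 0.99), Col1a1 (3.40 ± 0.87) and Col10a1 (3.38 ± 1.00). After wild-type core library 3 was left out, 13 members were higher and 0 lower, beside 4.88% of all genes called higher, and types I and III were no longer among them (2.69 ± 0.94 for Col3a1, edgeR adjusted p 0.12). Leaving out wild-type peri-infarct library 2 or library 3 gave 0 called members, and leaving out library 1 gave 15. The share over all genes was not taken for these fits.

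In the knockout 0 members were called between core and peri-infarct tissue by edgeR, where 0.0% of all genes were called. By the same edgeR test 24 members had an unadjusted p under 0.05 (18.6% of all genes). DESeq2 called 18 members, and the share over all genes was not taken for it. Col1a1 differed by 3.63 ± 0.88 and Col3a1 by 3.59 ± 1.00. With wild-type core library 3 left out, edgeR called 21 members higher and 3 lower (Col4a3, Col4a4 and Col19a1), beside 24.3% and 15.8% of all genes. Col1a1 was then higher by 3.70 ± 0.81 and Col4a1 by 1.75 ± 0.20. Col4a3 and Col4a4 were highest in the knockout peri-infarct libraries with the most choroid plexus RNA (Col4a3 at 2.07, 0.522 and 2.55 CPM), and the part of choroid plexus RNA in this result was not tested.

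Group means went up from contralateral to peri-infarct to core tissue for 27 of the 43 members in wild type and 30 in the knockout, and went down at both steps for 3 in each. At both steps the libraries were separated, upward, for 10 members in wild type and 17 in the knockout. Such separation held for 13.4% and 16.3% of all genes. Members separated in both genotypes were Col16a1, Col27a1, Col4a1, Col4a2, Col4a5, Col4a6, Col5a2, Col5a3 and Col7a1, of which 4 are type IV chains. Types I and III were separated in the knockout but not in wild type, where peri-infarct libraries 2 and 3 overlapped the contralateral range for Col1a1 and Col1a2, and library 2 for Col3a1.

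Ratios between chains of the same collagen type differed between regions. The pairs of chains were chosen with the values known and are a description with no test. Col4a1 over Col4a2 was 0.891, 1.09 and 1.18 in wild-type contralateral, 1.56, 1.27 and 1.36 in peri-infarct and 1.71, 1.94 and 2.09 in core libraries. In the knockout it was 0.858, 0.956 and 1.07, then 1.32, 1.33 and 1.36, then 1.85, 1.73 and 1.81. The 3 regions were separated in both genotypes. These genes are neighbours that overlap in the RefSeq table, so without strand a share of reads could be assigned to either.

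Col1a1 over Col1a2 went from 0.499, 0.453 and 0.522 in wild-type contralateral libraries to 0.857, 0.855 and 0.890 in the core, with 0.757, 0.663 and 0.579 between. The knockout went from 0.432, 0.329 and 0.460 through 0.694, 0.785 and 0.712 to 0.809, 0.880 and 0.898. Col5a1 over Col5a2 moved the other way, from 1.69 to 3.24 in contralateral to 0.600 to 0.735 in core libraries of both genotypes. Col6a3 over Col6a1 went from 0.0431 to 0.110 in contralateral to 0.147 to 0.288 in core tissue. As means of CPM, which ignore length, each of these ratios moved the same way from contralateral to core tissue in both genotypes.

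**Figure D4:**
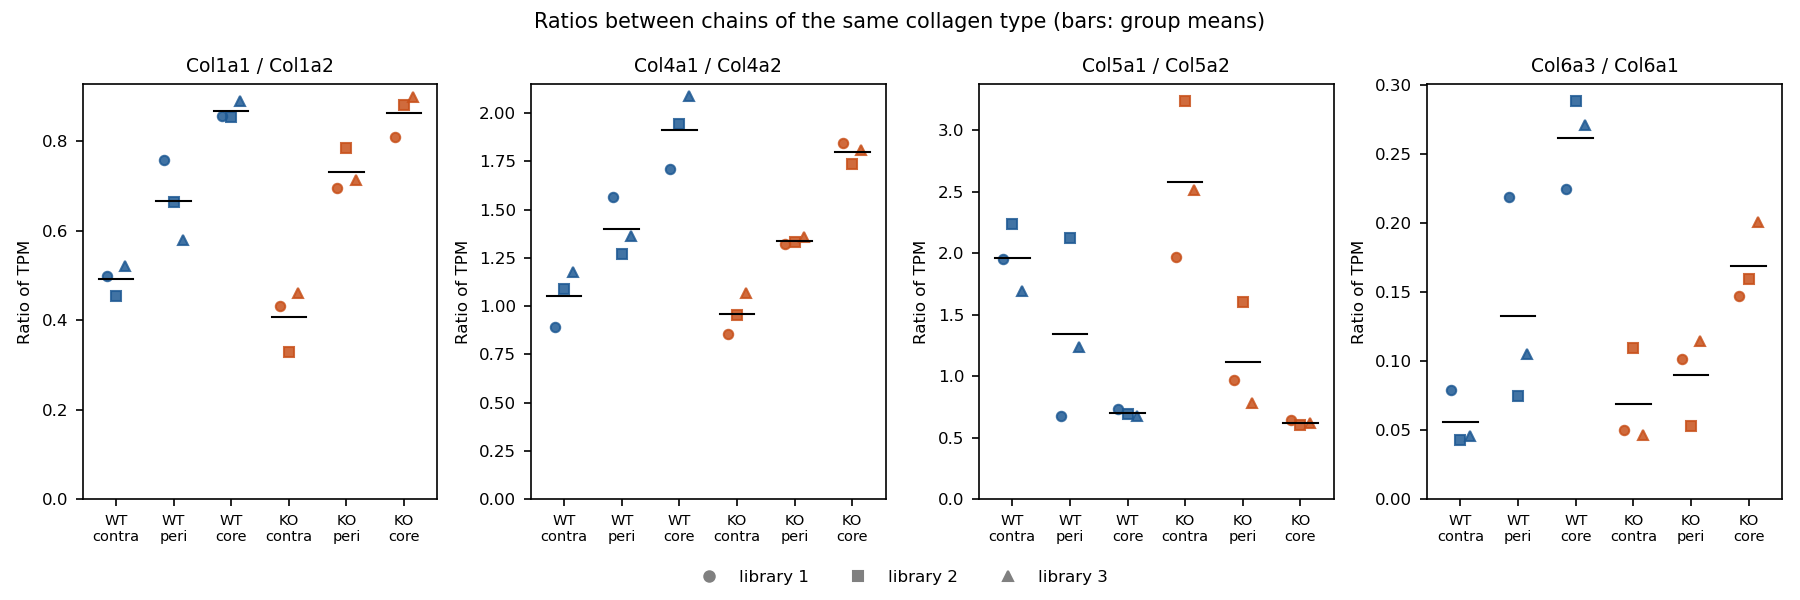
Points give the ratio of TPM between paired chains in each library, shaped by library number, with bars at the group means. Col4a1 over Col4a2 goes from 0.858 to 1.18 in contralateral to 1.71 to 2.09 in core libraries, and Col5a1 over Col5a2 goes down.

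The fourth set of comparisons asked whether Trem2 genotype went with collagen RNA. By edgeR 0 members were called in contralateral (0.00652% of all genes called in either direction), peri-infarct (0.00652%) or core tissue (0.013%), over the mean of the 3 regions (0.228%), or in the genotype differences of the peri-infarct and core responses (0.0% each). Members with an unadjusted p under 0.05 numbered 1, 3, 2, 3, 0 and 1 in that order, beside 2.96%, 3.23%, 11.9%, 13%, 0.731% and 2.39% of all genes. DESeq2 called 0 in all of these except the mean of the regions, where it called Col8a2. Without wild-type peri-infarct library 1, edgeR again called 0 members in peri-infarct tissue and in the peri-infarct response. The members with an unadjusted p under 0.05 then numbered 12 and 7, and the share over all genes was not taken. With the core difference between genotypes at 0.05 ± 0.90 for Col3a1, 0.08 ± 0.79 for Col1a1 and -0.10 ± 0.27 for Col4a1, the errors of the scar chains span differences of either sign. Leaving out wild-type core library 3, the same values were 0.84 ± 0.95, 0.87 ± 0.83 and 0.31 ± 0.22.

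Col12a1 had the smallest p among members for the genotype difference of the core response, 1.48 ± 0.57 (unadjusted p 0.022, edgeR adjusted p 0.98). The 3 knockout core libraries at 86.7, 185 and 159.8 CPM lay above wild-type core libraries 1 and 2 at 45.8 and 55.0, and overlapped the third at 117. The knockout to wild-type difference in the core was 0.98 ± 0.40 (edgeR adjusted p 0.40). After wild-type core library 3 was left out, it was 1.54 ± 0.38 and passed the test (edgeR adjusted p 0.047), the 1 member to do so, beside 0.998% of all genes called higher. With the 2 knockout libraries of highest choroid plexus RNA left out too it was 1.52 (edgeR adjusted p 0.063). The difference of the responses, 2.00 ± 0.52, was not called (edgeR adjusted p 0.36). Without wild-type core library 3 alone, 34 of the 43 members had a positive difference in the core, and with all libraries 25 had one. The median of the 43 was 0.33 without that library, against 0.02 over all genes. With all libraries it was 0.02, against -0.01 over all genes. Cortical neuron markers summed to 1057 to 1203 CPM in wild-type core libraries 1 and 2 and 559 to 746 in the knockout core. Fibroblast markers summed to 188 to 215 and 231 to 421 CPM. The part of these tissue differences in the Col12a1 result was not tested.

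Col8a2 had the smallest p in peri-infarct tissue and over the mean of regions. Its knockout to wild-type difference was 2.01 ± 0.69 in peri-infarct tissue and 1.34 ± 0.39 over the regions (edgeR adjusted p 1.0 and 0.19). With wild-type core library 3 left out, the mean over regions was 1.54 ± 0.40 and passed (edgeR adjusted p 0.033), beside 2.26% of all genes called higher. Its highest knockout values outside the core, 19.7 CPM in contralateral library 2 and 28.3 and 11.3 in peri-infarct libraries 3 and 1, were in the 3 libraries of highest choroid plexus RNA. In the knockout core choroid plexus markers summed to 17.2 to 60.5 CPM, and Col8a2 stood at 7.14, 22.5 and 10.997 there. With contralateral library 2 and peri-infarct library 3 of the knockout left out as well, the mean difference was 0.93 (edgeR adjusted p 0.068). Col19a1 was the other member called over the mean of regions without wild-type core library 3. Its knockout to wild-type difference was then -0.42 ± 0.12 (edgeR adjusted p 0.049), beside 5.2% of all genes called lower. With all libraries the Col19a1 difference was -0.24 (edgeR adjusted p 0.86). With the same knockout libraries left out as well, it was -0.44 (edgeR adjusted p 0.063). Cortical neuron markers, given above, were higher in wild-type core libraries 1 and 2 than in the knockout core. Their part in the Col19a1 result was not tested.

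**Figure D5:**
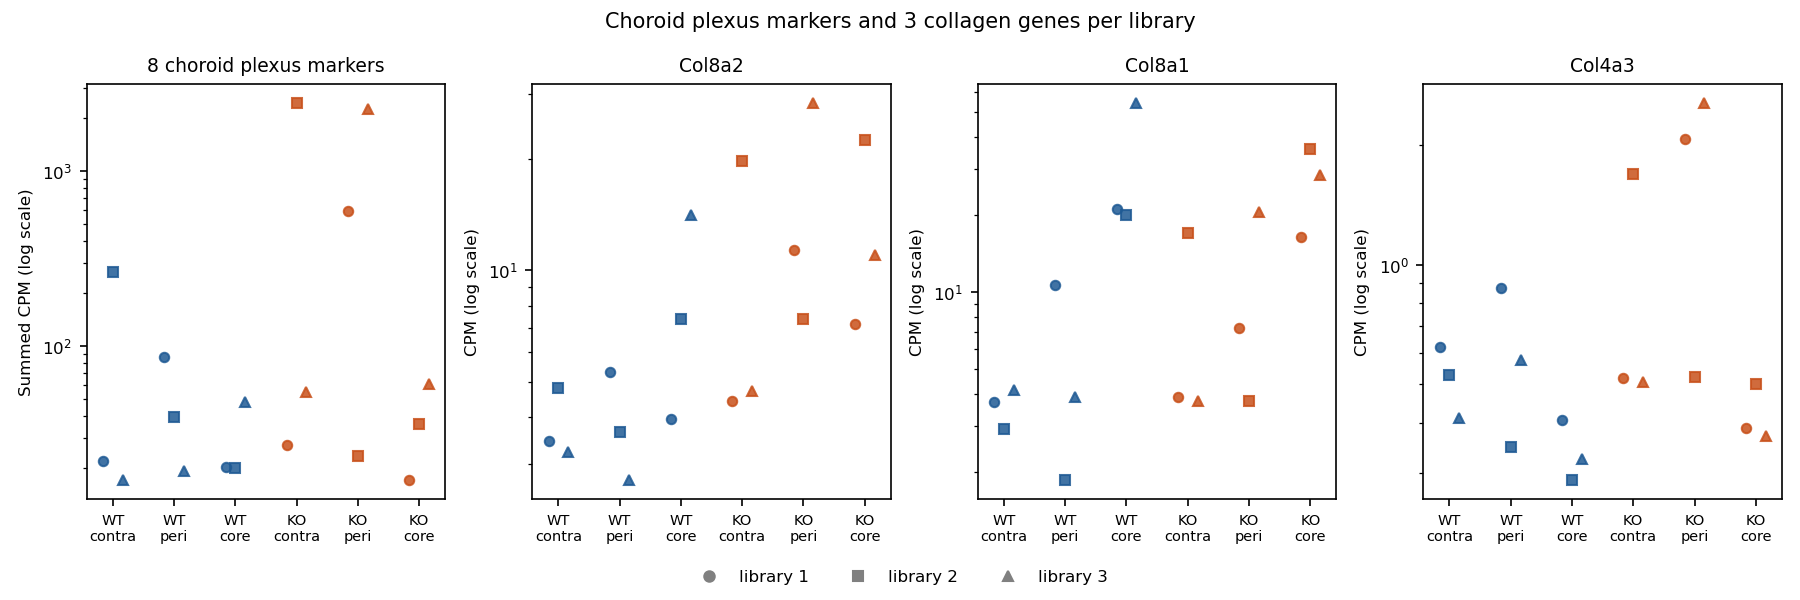
Points give, per library on log axes, the summed CPM of 8 choroid plexus markers and the CPM of Col8a2, Col8a1 and Col4a3. Marker CPM are scaled by library total only, and those of the collagen genes by TMM. Knockout contralateral library 2 and peri-infarct library 3, at 2439 and 2268 CPM of markers, hold the highest values of their groups for all 3 collagen genes.

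In contralateral tissue the smallest p belonged to Col13a1, whose knockout to wild-type difference was -0.78 ± 0.35 (edgeR adjusted p 1.0), and in the core it belonged to Col9a2 (0.69 ± 0.28, edgeR adjusted p 0.40). Over the mean of regions Col23a1 differed by 0.61 ± 0.19 and Col4a3 by 0.87 ± 0.34 (edgeR adjusted p 0.22 and 0.30). Col23a1 was higher in every knockout than in any wild-type peri-infarct library, as was Col8a2, and Col4a3 overlapped there. Such a separation held for 6 members and for 8.02% of all genes. None of these passed the test.

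Genes that make, bind and break down collagen were counted in lists of their own. Of 19 genes that modify and fold chains, 16 rose in the core of wild-type mice and 14 in that of knockout mice against contralateral tissue, beside 29.1% and 19.7% of all genes, and 0 fell. Serpinh1, the collagen chaperone Hsp47, stood at 21.8, 25.0 and 22.8 CPM in wild-type contralateral and 122, 162 and 407 in core libraries, and at 23.7, 20.5 and 22.9 and 135, 221 and 199 in the knockout. It rose by 3.31 ± 0.42 and 3.05 ± 0.41. Plod1, a lysyl hydroxylase, rose by 3.09 ± 0.41 and 2.27 ± 0.40, and Fkbp10, a folding enzyme of procollagen, by 2.26 ± 0.30 and 2.22 ± 0.30. The medians of the list were 1.80 and 1.36, against the all-gene medians near 0 given above. With wild-type core library 3 left out, 16 rose in each genotype, beside 23.6% of all genes in wild type and 29.6% in the knockout. The medians of the list were then 1.15 and 1.35, and the wild-type values of Serpinh1 and Plod1 were 2.61 ± 0.29 and 2.13 ± 0.11.

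Of 13 genes that trim propeptides and cross-link fibres, 9 rose in the core of each genotype, beside 29.1% and 19.7% of all genes. Pcolce2, an enhancer of propeptide removal, fell by 1.11 ± 0.41 on the log2 scale in wild type, and its knockout difference of -0.80 ± 0.40 was not called. Bmp1, the protease that removes the C-terminal propeptide, measured 30.3, 30.9 and 31.0 CPM in wild-type contralateral and 52.6, 65.8 and 68.1 in core libraries. Knockout libraries held 35.8, 38.2 and 31.4 and then 64.5, 70.4 and 66.4 CPM. The rise of 1.02 ± 0.12 and 0.93 ± 0.12 was modest beside those of the cross-linking enzymes Loxl1 (3.30 ± 0.42 and 3.48 ± 0.42) and Loxl2 (4.84 ± 0.76 and 5.74 ± 0.80). Omitting wild-type core library 3, 9 again rose in each genotype, beside 23.6% of all genes in wild type and 29.6% in the knockout. In that fit 1 gene of the list fell in wild type and 2 in the knockout, beside 16.6% and 27.8% of all genes. Loxl1 and Loxl2 were then higher in wild type by 2.69 ± 0.31 and 3.92 ± 0.63.

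Of 10 tested collagen receptors, 6 rose in the core of wild-type mice and 7 in that of knockout mice, beside 29.1% and 19.7% of all genes. Lair1, an inhibitory receptor of leukocytes that binds collagen, stood at 18.1, 11.4 and 15.4 CPM in wild-type contralateral and 74.7, 74.9 and 269 in core libraries, and at 16.7, 14.9 and 13.9 and 97.9, 97.9 and 57.6 in the knockout. It rose by 3.22 ± 0.44 and 2.48 ± 0.43. The integrin chains Itgb1 (2.45 ± 0.37 and 1.86 ± 0.36) and Itga2 (1.89 ± 0.28 and 2.65 ± 0.29) rose as well. Omitting wild-type core library 3, 7 and 8 receptors rose, beside 23.6% and 29.6% of all genes. The wild-type values of Lair1 and Itgb1 were then 2.31 ± 0.23 and 1.61 ± 0.12. In peri-infarct tissue 1 receptor was higher in wild type (Lair1) and 4 in the knockout (Ddr1, Ddr2, Itga1 and Itga2), beside 3.27% and 4.42% of all genes. The counts were 3 and 7 without that library, beside 14.2% and 13.7%. Ddr2, a receptor kinase for fibrillar collagen, was higher in knockout than wild-type core tissue without wild-type core library 3 (0.71 ± 0.17, edgeR adjusted p 0.041). In that comparison 0.998% of all genes were called higher, and the tissue markers that differed between these libraries are given above. In the same fit 1 gene that modifies or folds chains was lower in the knockout over the mean of regions, beside 5.2% of all genes. With all libraries no gene of these lists, Ddr2 included, was called between genotypes.

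All 9 genes of collagen breakdown and uptake rose in the wild-type core and 7 in the knockout core, beside 29.1% and 19.7% of all genes; in the knockout Fap (0.46 ± 0.48) and Pepd (0.60 ± 0.23) were not called. Mmp8, the neutrophil collagenase, measured 0.226, 0.235 and 0.294 CPM in wild-type contralateral and 6.68, 8.96 and 32.9 in core libraries. The knockout held 0.173, 0.113 and 0.112 and then 9.46, 11.9 and 6.77 CPM. It rose by 5.97 ± 0.69 and 6.07 ± 0.73, and was higher in peri-infarct tissue too (3.78 ± 0.68 and 3.93 ± 0.75). Mmp14, a membrane-bound collagenase, rose by 2.42 ± 0.30 and 2.41 ± 0.30, and Mmp2, a gelatinase, by 2.98 ± 0.39 and 3.66 ± 0.40. Leaving out wild-type core library 3, 8 of the 9 rose in the core of each genotype, beside 23.6% of all genes in wild type and 29.6% in the knockout. In wild type Fap was then not called (0.68 ± 0.44), and Mmp8 and Mmp2 were higher by 4.92 ± 0.46 and 2.33 ± 0.26.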

How the data were processed

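Poly(A) RNA of 18 libraries was sequenced by the authors, 3 for each of 6 groups of genotype and region. The values used were those the authors deposited: estimated counts per gene (19.4% of the 18922 genes have a value that is not whole) and TPM, scaled by the authors to gene length and library size. Per the submitters' processing notes HISAT2 2.0.4, Bowtie2, Subread and the build GRCm39 were used, in roles not given in the sources used here, and neither the tool that estimated the counts nor any use of strand is given.

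The software was R 4.3.3 and edgeR 4.0.16. After rounding, low genes were removed (filterByExpr, groups given), libraries were scaled by TMM, and a robust quasi-likelihood model of the 6 group means was fitted to all 18 libraries, leaving 12 residual degrees of freedom. p-values were adjusted by Benjamini-Hochberg over 15329 genes, and a gene was called at an adjusted p under 0.05. A plan made for whole counts was kept for the rounded values. Standard errors came from the fitted fold change and its F statistic. CPM of members, pathway genes and Trem2 are scaled by TMM, and those of cell type markers by library total only. The TMM factor was 0.824 in wild-type core library 3 and 0.967 to 1.07 in the others. Marker values of that library would therefore be higher on the TMM scale. TPM served for levels between genes, family shares and chain ratios. The fit was tested on simulated data. Alternatives were DESeq2 1.42.0, another scaling (RLE), no filter, only the groups compared, limma 3.58.1 on log2(TPM + 1), the replicate number as a block, and leaving out libraries; the joint leave-outs were added after the data were seen.

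The members, classes and gene lists were chosen with earlier results of these data known. Values in every library were to be given for the 2 members of highest TPM in each class, the 3 largest rises among called members and each member called lower within a genotype, and the called or smallest-p member between genotypes. Of each pathway list the 3 genes of smallest p in the wild-type core were named. Other members shown in full, Col12a1 and Col19a1 between genotypes and the chain pairs were chosen after their values were seen. Same-numbered wild-type contralateral and peri-infarct libraries deviated together (r 0.40, 0.44 and 0.39 across genes), which was not so for every pair in any other set of regions, and no label says that a number is an animal. Library totals differ little, and the precision is set by 3 libraries a group. With 3 against 3 libraries a permutation test cannot go below 0.10, so none was used. Col17a1 was left out as too low, and collagen protein sequences were not analysed here.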

Additional observations from a re-analysis of the deposited data

How the results depend on the processing

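Except without wild-type core library 3 alone, the share of all genes called was not taken under the alternatives. Their counts, here and above, therefore cannot show whether collagens differed from other genes. Counts of called members in the core against contralateral tissue held between 25 and 28 in wild type and between 23 and 28 in the knockout when libraries were left out singly. The exception among the alternatives was a fit of only the groups compared, which called 0 in wild type by edgeR, with 29 at an unadjusted p under 0.05. Wild-type peri-infarct against contralateral gave 9 with only the groups compared, 6 by limma-trend on log2(TPM + 1), 8 by DESeq2, 8 without wild-type core library 3 and peri-infarct library 1 together, and 0 to 13 without single libraries; it was 0 in 5 of the 6 fits that left out a compared library. Wild-type core against peri-infarct gave 0 with only the groups compared (22 at an unadjusted p under 0.05) and 0 to 25 without single libraries. With the replicate number as a block it gave 0, and the block moved no other count of calls by over 1.5 times; the pairing of these libraries is not given by the labels. Knockout peri-infarct against contralateral gave 6 with no filter, 21 with only the groups compared and 1 to 16 without single libraries. Knockout core against peri-infarct gave 6 with no filter, 24 with only the groups compared, 18 by limma-trend and by DESeq2, 25 with wild-type core library 3 and the knockout libraries high in choroid plexus markers left out together, and 0 to 24 without single libraries. Between genotypes DESeq2 called 1 member over the mean of regions, and single leave-outs gave 0 to 1 in the core, 0 to 2 over the mean and 0 in each other comparison. Of the values of single named genes under alternatives, 1874 kept their side of the threshold, 112 passed it newly, 166 no longer passed and 0 changed sign while called. The cause of these changes was not tested. With 3 libraries a group, differences between genotypes of the size of the errors given were not detectable.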
